A study of Mus musculus with 8 samples.

Results

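Wild-type mouse footpad RNA was compared with a universal mouse reference RNA on 4 Agilent arrays that carry 2 colours each. These are the 4 wild-type arrays of a series of 8, in which the other 4 carry footpad RNA of Foxc1 knockout mice (labelled cKO) against the same reference. Foxc1 encodes a forkhead transcription factor. Footpads of wildtype or Foxc1 KO mice on a C57BL6 background were taken as 1 mm punch biopsies. The labels used here give no age, no sex and no allele or Cre driver. On every array the footpad was labelled with Cy3 and the reference with Cy5, and no array had the dyes exchanged, so any dye bias is part of each footpad ratio. Wild-type replicates 1 and 2 lay on slide 1 and replicates 3 and 4 on slide 2. The labels number the replicates 1 to 4 but describe each as one of 2, and do not tie the arrays to separate animals by any other mark, so the p-values here reflect differences between samples that could be technical. No probe could be matched to Foxc1, so the genotype labels were not checked on it.

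Probes were kept when at least one channel was well above background on each of the 4 wild-type arrays. Of 42006 probes that are not controls, 31224 met this rule and 31223 could be tested. The scanner files name a probe only by an identifier and its 60-base sequence, with no gene, so most results are given by probe. A probe was named for a gene only if it matched, base for base, the first 50 transcribed bases of a single gene in a RefSeq table of start sites (GRCm38.p6), over at least 25 transcribed bases, and began no more than 10 bases before the start. This gave 127 genes, of which 71 were tested.

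The mouse footpad is hairless skin with a thick cornified epidermis, and in this species it is the main site of eccrine sweat glands. The pad holds keratinocytes, gland and duct cells, fibroblasts, vessels, nerves and fat. A universal reference is a mixture of RNA from many sources, whose makeup the labels do not give. A ratio against it says how much more of a transcript the footpad sample holds than that mixture does, and it cannot tell more cells of a type from more RNA per cell.

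The sequences that follow are the first 30 of 60 bases, 5′ to 3′, of the probes at the far ends of the comparison, with no part in capitals. The first 3 had the highest footpad ratios, the next 2 the lowest, and the last 2 led the probes seen in the footpad channel alone and in the reference channel alone.
Z00040994-1: ctgtggctatcttagatcgggtaatagttg
Z00048522-1: gatgatgagctgacctacttctaagcagca
Z00042903-1: gataatcaagggaagtaactttggaatgag
Z00074503-1: gttgtttcatgcaaacaccgttgtaaccaa
Z00009495-1: ttctcagttcagtggatatatgtatgtaga
Z00025980-1: tgcaaaatgtgccatgggtccagtagtgat
Z00030539-1: tagagtgctaagcatatactcgtgtgaaat

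Footpad and reference differed widely. Mean log2 ratios of Cy3 over Cy5 ran from -9.58 to 9.33 with a median of -0.0058, and the middle 50% of probes lay between -0.50 and 0.56. A probe was called when limma's test of the 4 ratios against 0 gave an adjusted p under 0.05 (Benjamini-Hochberg) and the mean differed at least 2-fold. By this rule 4955 probes (15.9%) were higher in footpad and 4187 (13.4%) lower, 29.3% of those tested. These include probes kept only through the channel in which they are bright. In 148 higher calls the reference was well above background on no array, and in 409 lower calls the footpad was on none. Among the 25871 probes well above background in both channels on all 4 arrays, 4612 were called higher and 3529 lower. Since the reference was 1 RNA, the test leaves out its own spread. With the fold limit dropped, 82.6% of probes passed, 12850 higher and 12949 lower, so the fold limit sets most of the count. In all, 4308 of the higher calls exceeded 2-fold on each of the 4 arrays, as did 3595 of the lower calls.

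On the loess scale more probes lay far above the reference than far below it. At least 16-fold differences were called for 509 probes higher in footpad and 142 lower, and at least 64-fold differences for 91 and 22. The balance between directions depended on the scaling. Loess sets the typical ratio at each signal level to about 0, whereas centring each array on its median left the tested probes at a median of -0.26 and gave 3392 higher and 7636 lower calls. Subtracting the local background before median centring moved the median to -0.41, with 4154 higher and 9677 lower calls, and the scanner's processed signals moved it to -0.11, with 6003 higher and 7299 lower. The share of higher calls was thus 54.2% in the analysis used here and 30.8% under median centring, 30.03% after subtraction and 45.1% from processed signals, while 7564 of the 9142 calls kept their call and direction under median centring. Values below are on the loess scale, relative to the typical probe of like signal.

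**Figure D1:**
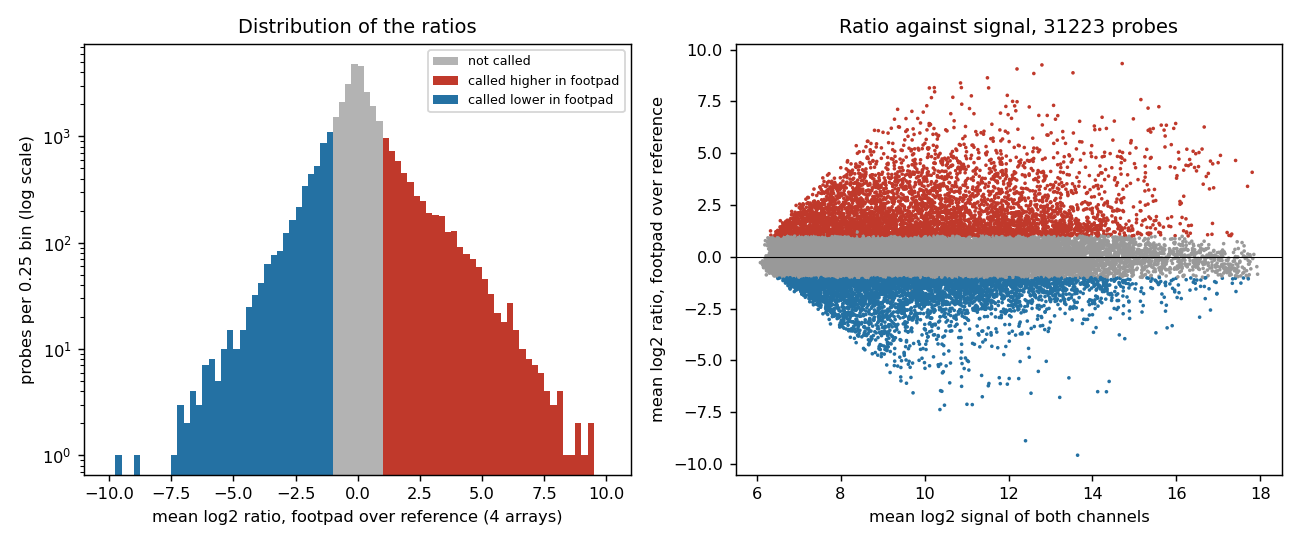
Left, number of the 31223 tested probes in each 0.25-wide bin of mean log2 ratio of footpad over reference (log scale), with the 4955 probes called higher in red, the 4187 called lower in blue and the rest in grey. Right, the same ratios against the mean log2 signal of both channels. The ratios reach 9.33 and -9.58, and few calls lie at the lowest signals.

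Calls were rare among dim probes. Among the dimmest 25% of probes by signal, 3.86% were called higher and 2.43% lower, against 20.9% and 14.7% among the brightest 25%. The offset of 50 added before the logarithm pulls ratios of dim probes toward 0. Base composition differed little between the classes. The median GC content was 45.0% in probes called higher, 43.3% in those called lower and 45.0% in the uncalled. The polyadenylation hexamers AATAAA or ATTAAA were present in 12.0% of probes called higher, 11.4% of those called lower and 9.80% of the uncalled, and in 9.90% of all probes on the array. Their reverse complements were present in 5.53% of all probes.

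The 4 wild-type arrays gave much the same ratios. Over the tested probes the correlation between pairs of arrays, which share probes and the reference RNA, was 0.981 to 0.993, highest for the pair on slide 1. The median SD over the arrays was 0.10 on the log2 scale, with the 5th and 95th percentiles at 0.03 and 0.27.

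The highest ratio belonged to probe Z00040994-1. Its Cy3 signal above local background was 472684, 401111, 429320 and 426019 in replicates 1 to 4 and its Cy5 signal 1218, 1151, 2274 and 2039. The log2 ratios were 9.62, 9.70, 8.88 and 9.13, a mean of 9.33 ± 0.39 (SD, n = 4). The footpad signal was alike on both slides, whereas the reference signal was higher on slide 2, and the ratio there was lower. Probe Z00048522-1 came next at 9.27 ± 0.13 (SD, n = 4), and Z00042903-1 followed at 9.07 ± 0.57.

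This slide difference ran through the set of 20 highest ratios. Both slide 2 arrays had lower ratios than both slide 1 arrays for 16 of the 20 probes, and higher ones for 1. The Cy5 signal of the 20 was a median of 1.80 times as high on slide 2 as on slide 1, against 1.22 times over all probes well above background in both channels, while their Cy3 signal was 1.04 times as high. At the other end the pattern was turned: of the 20 lowest ratios, 16 were nearer to 0 on both slide 2 arrays, and their Cy3 signal was a median of 1.32 times as high there. At both ends the weaker channel was thus the brighter on slide 2, and the part of the slide in this was not tested further. The 20 highest means covered 7.29 to 9.33, with SDs of 0.11 to 0.72. These 20 were picked by the same ratios that limma tests, so no p is given for the set.

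The lowest ratio belonged to probe Z00074503-1. Its Cy3 signal was 335, 247, 262 and 245 and its Cy5 signal 481212, 519883, 555777 and 553007. The log2 ratios were -9.36, -9.65, -9.68 and -9.63, a mean of -9.58 ± 0.15 (SD, n = 4), with replicate 1 nearest to 0. The footpad channel was well above background on all 4 arrays, and the reference channel was among the brightest on the array. Probe Z00009495-1 had a mean of -8.88 ± 0.23 (SD, n = 4). After these a gap followed, and the other 18 of the 20 lowest means lay between -7.14 and -5.88.

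**Figure D2:**
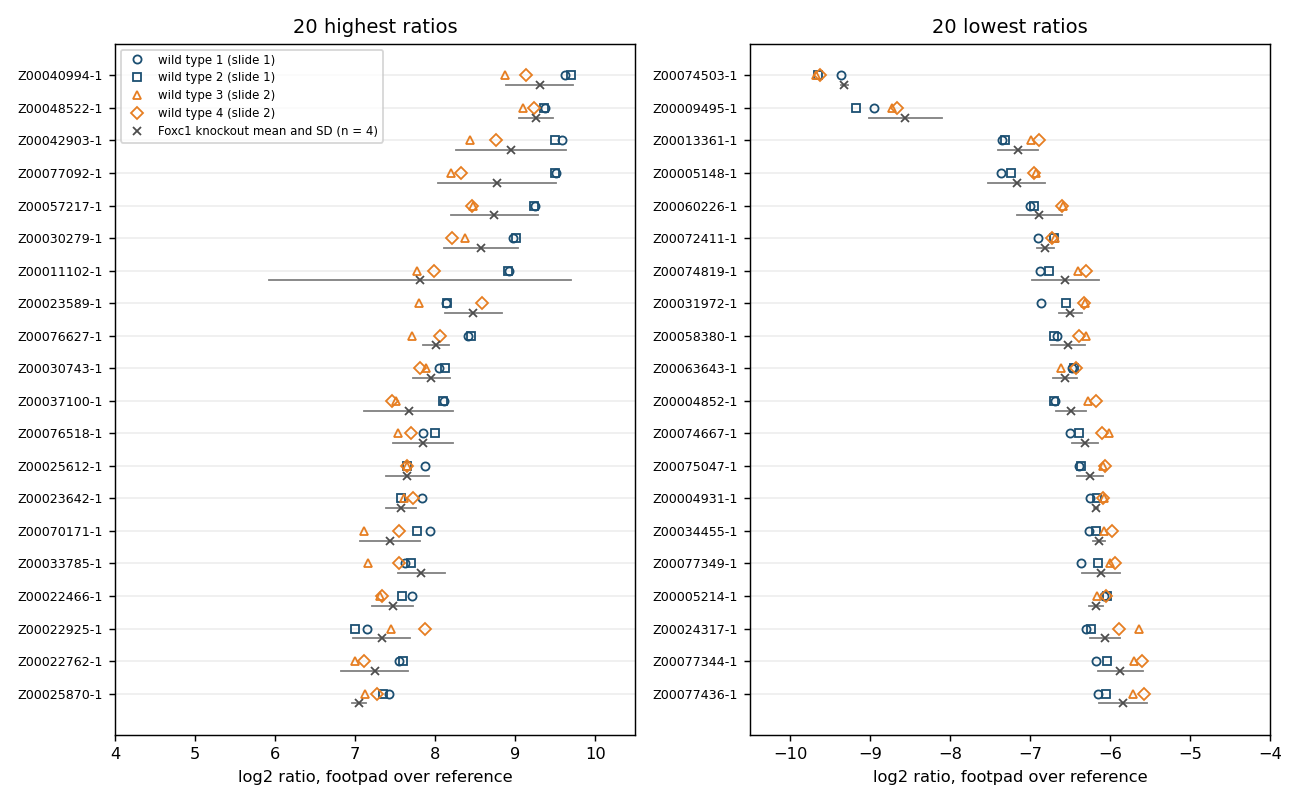
Log2 ratio of footpad over reference for the 20 probes with the highest (left) and lowest (right) mean ratio among called probes well above background in both channels. Blue circles and squares are wild-type replicates 1 and 2 on slide 1, orange triangles and diamonds replicates 3 and 4 on slide 2, and grey crosses with bars the mean and SD of the 4 Foxc1 knockout arrays. Most orange symbols lie nearer to 0 than the blue ones, and the knockout means lie at 7.05 to 9.31 and -9.32 to -5.85.

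Some probes were measured in one channel only. Well above background in the footpad channel on all 4 arrays and in the reference on none were 320 probes, and the reverse held for 2270. For these a ratio is a lower bound. It sets the brighter channel, scaled within and between arrays, against the dimmer probe's own signal or the lowest signal well above background on that array, whichever was higher, and is open to dye bias. The bound reached at least 4-fold for 49 footpad-only and 139 reference-only probes. The median bound was 1.91-fold in the first set and 1.19-fold in the second, so most of the reference-only probes were dim in both channels.

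Probe Z00025980-1 led the footpad-only set. Its Cy3 signals were 7619, 5861, 5189 and 4948 against Cy5 signals of 13.5, 14.5, 16.1 and 18.0. It was at least 131-fold higher in footpad. Probes of this set were kept through the channel in which they are bright, so no p is given for them. Next were Z00048880-1, at least 62.8-fold higher, and Z00061870-1, at least 46.3-fold higher, and the 15 largest bounds in this set went down to 9.44-fold. Probe Z00030539-1 led the reference-only set. Its Cy3 signals were 33.4, 40.2, 29.3 and 32.4 against Cy5 signals of 23047, 22642, 23209 and 23423. It was at least 166-fold lower in footpad. Its Cy5 signal, the brighter channel, varied little between slides. Z00050494-1 had the next largest bound, followed by Z00057176-1, at least 68.8-fold lower, and the 15 largest bounds went down to 18.7-fold. In knockout footpads the Cy3 channel was well above background for Z00025654-1 and Z00033292-1 on all 4 arrays. Over all probes that flag was set for 66.1% to 68.3% in Cy3 on wild-type arrays and 71.4% to 76.2% on knockout arrays, and its part in this was not tested.

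**Figure D3:**
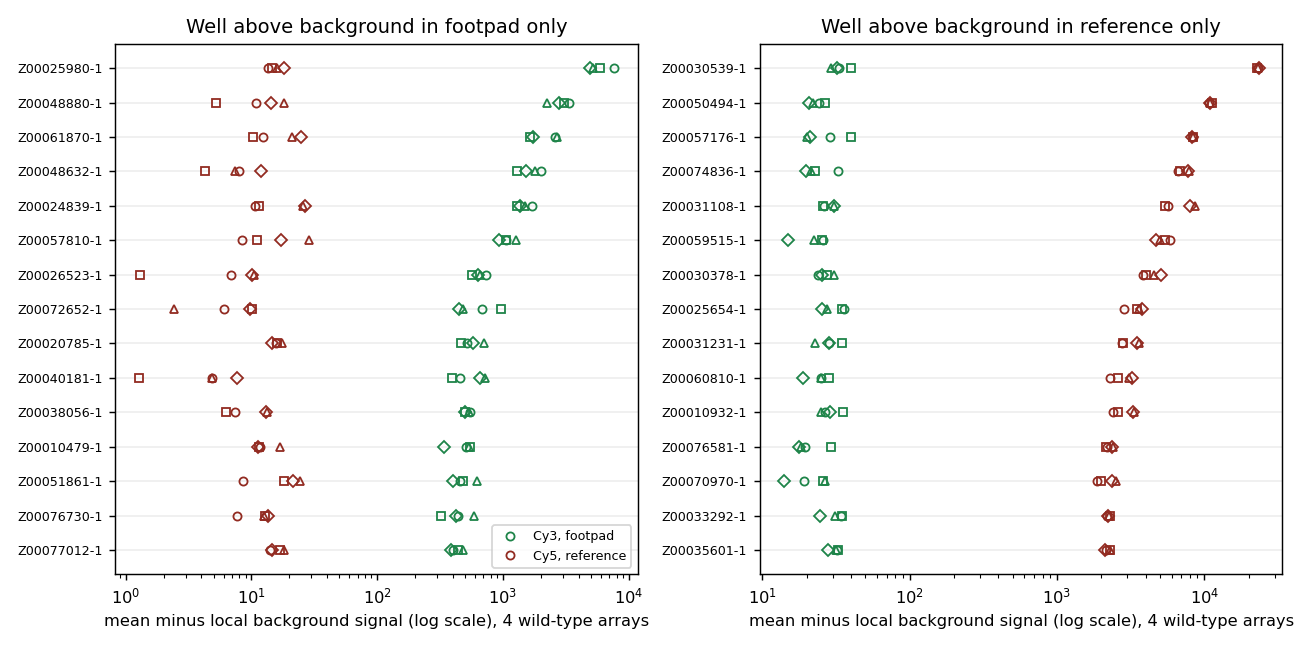
Signal above local background (log scale) of the 15 probes with the largest bounds that were well above background in footpad only (left) or reference only (right). Green symbols are Cy3 (footpad) and red ones Cy5 (reference), with 1 symbol shape for each of the 4 wild-type arrays. The probes were chosen for the distance between the channels, and the largest bounds are those of Z00025980-1 and Z00030539-1.

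Probes that share sequence allowed a comparison of ratios within an array. Among the tested probes 1053 pairs had at least 25 consecutive bases in common, in 778 families. Over these pairs the correlation of the mean ratios was 0.952, and 93.5% had the same sign. Members of a pair may hybridise to some of the same transcripts, which was not tested, so they were not taken as independent. The median absolute difference between the means of a pair was 0.10, but 32 pairs differed by at least 1 and 10 by at least 2 on the log2 scale. In 21 of those 32 a member lay among the dimmest 25% of probes, as in 303 of all 1053 pairs. The families below were picked after their values were seen.

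A family of 3 probes was high in footpad throughout. Their shared 28 bases are in capitals.
Z00026084-1: TCAAGAAAAGCCCAGCTAGTCTTGTTTTat
Z00060172-1: gTCAAGAAAAGCCCAGCTAGTCTTGTTTTg
Z00026043-1: TCAAGAAAAGCCCAGCTAGTCTTGTTTTgt
The mean log2 ratios were 5.08 ± 0.30 for Z00026084-1, 5.12 ± 0.32 for Z00060172-1 and 4.21 ± 0.19 for Z00026043-1 (SD, n = 4 each). The ratios thus differed by less than 1 among probes with this stretch in common. Of the 57 families with 3 or more probes, 4 had every member called higher, 5 every member called lower, and 33 no member called.

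In a pair among the 20 lowest ratios the probes had 42 bases in common, of which the first 30 are shown.
Z00058380-1 and Z00024317-1: TTTGGTTCTGGCGGGATTTTTAGCTTTGTT
Their means were -6.51 ± 0.20 and -6.02 ± 0.31 (SD, n = 4 each), which lie within 0.5 of each other.

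The largest disagreement came from a family of 12 probes, in which 9 were called lower in footpad with means of -4.34 to -6.12 and 3 were not called. A run of 30 bases shared by 3 of these probes is shown in capitals.
Z00077349-1, Z00077345-1 and Z00077346-1: TCGGTGCTGGGACCAAGCTGGAGCTGAAAC
Z00077349-1 was at -6.12 ± 0.19 (SD, n = 4), but Z00077345-1 was at -0.18 ± 0.07 and Z00077346-1 at -0.12 ± 0.06. Neither of the latter was called, and their footpad channel was well above background on 0 and 3 of the 4 arrays. Both were among the dimmest 25% of probes, at mean log2 signals of 6.29 and 6.65, against 11.5 for Z00077349-1. The offset pulls such ratios toward 0. At mean signals this low and ratios near 0, the reference channel of these dim probes was dim as well, unlike that of Z00077349-1. The cause of the disagreement was not tested.

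The genes that could be named were a small sample of the tissue. Of 637 symbols in 30 lists of skin, gland, immune and other marker genes, 4 had a matched probe and 3 a tested one, so the footpad could not be checked against its keratinocyte or sweat gland markers here. Of the 71 genes tested, 7 were called higher in footpad and 3 lower, against 15.9% and 13.4% of all probes tested. The median ratio of the 71 was -0.0071, against -0.0058 over all probes tested. The probes lie at the 5′ end of a transcript, and each sees only transcripts that begin near that start. The sequences of 8 of these probes are given below, up to 30 bases of the matched stretch, with bases at or after the annotated start in capitals. They are from RefSeq's start table in build GRCm38.p6, which the probe matched.
Pitpnm2 (Z00066495-1, chr5:124249726-124249755, minus strand): TGAGGCGCGTGGGGGGCACGGCGGTGGCGC
Retn (Z00023450-1, chr8:3655771-3655800, plus strand): TCAACAAGAAGGAGCTGTGGGACAGGAGCT
Abhd12b (Z00059897-1, chr12:70154153-70154180, plus strand): CAGTGGAGGCACCTCAGGATGGACGCTA
Arl6 (Z00065658-1, chr16:59639318-59639347, minus strand): gcagtggcGGCTCCCCGTGTCTTCCGTGCT
Hspa1a (Z00032440-1, chr17:34972107-34972136, minus strand): CAGAACCAAATCTGGTTCCATCCAGAGACA
Gstp1 (Z00077387-1, chr19:4037882-4037911, minus strand): TCTGAGTACCCCTCTGTCTACGCAGCACTG
Cyba (Z00064241-1, chr8:122432912-122432941, minus strand): gGCCGATCAGTGAGGACTTGCGAAGTGGGC
Kif22 (Z00056302-1, chr7:127042390-127042419, minus strand): GCCGAAGAAGGGAAGGCTATGAGCTTAAGG

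The highest matched genes were Pitpnm2, Retn and Abhd12b. Pitpnm2 encodes a membrane-bound phosphatidylinositol transfer protein. Its log2 ratios were 3.19, 3.24, 3.11 and 3.32, a mean of 3.22 ± 0.09 (SD, n = 4; adjusted p = 1.05e-08). Retn encodes resistin, a hormone that mouse adipocytes secrete. Its ratios were 3.00, 2.90, 1.87 and 2.28, a mean of 2.51 ± 0.54 (SD, n = 4; adjusted p = 1.67e-05). All 4 arrays were high, but the pair on slide 2 was below the pair on slide 1, and the punches' content of fat was not tested. Abhd12b, of the abhydrolase domain family, was at 2.26 ± 0.14 (SD, n = 4), with all arrays between 2.14 and 2.46.

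Arl6 encodes a small GTPase that acts in traffic to the primary cilium. It was higher in footpad at 2.17 ± 0.12 (SD, n = 4). The long noncoding RNA Gm36608 was at 1.56 ± 0.05, with its Cy5 signal well above background on 3 of the 4 arrays. The noncoding Arhgap27os3, which overlaps Arhgap27 on the other strand, was at 1.58, 1.52, 0.72 and 0.74 in replicates 1 to 4. Its mean of 1.14 ± 0.47 (SD, n = 4) fell to 0.99, below the 2-fold limit, without replicate 1, and to 0.79 under median centring.

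Named genes of chromatin and cell division lay on both sides of the reference. H2ac18, a histone H2A gene, was called higher at 1.09 ± 0.25 (SD, n = 4), though its mean was 0.97 without replicate 2 and 0.78 under median centring. Kif22, a kinesin that moves chromosomes at mitosis, was called lower at -1.02 ± 0.07, with all 4 arrays between -0.93 and -1.08. Cdca7, a gene induced in proliferating cells, was lower at -0.55 ± 0.04, and H3f3a, which encodes the replacement histone H3.3, at -0.53 ± 0.10. The histone H4 genes H4c8 and H4c3 were lower at -0.40 ± 0.06 and -0.34 ± 0.08. These 4 passed the test but not the 2-fold limit on the loess scale. With local background subtraction and median centring, Cdca7 and H3f3a were called lower at -1.17 and -1.14. The H4c3 probe shares 27 bases, in capitals, with another probe that was called lower at -1.60.
Z00032980-1: gggAAAGGCGGCGCTAAGCGCCACCGTAAG
Z00074045-1: cAAAGGCGGCGCTAAGCGCCACCGTAAGgt
Histone genes have near-identical copies, so each of these signals may come from more than one of them.

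Among named genes of redox reactions and stress, Gstp1 and Cyba were called lower. Gstp1 encodes a glutathione transferase that conjugates electrophiles. Its log2 ratios were -2.16, -2.18, -2.06 and -1.89, a mean of -2.07 ± 0.13 (SD, n = 4; adjusted p = 1.16e-07). Cyba encodes p22phox, a membrane subunit of the phagocyte NADPH oxidase. Its ratios were -1.78, -1.70, -1.74 and -1.79, a mean of -1.75 ± 0.04 (SD, n = 4; adjusted p = 4.31e-08). Neither gene had an array near 0. Prdx1, a peroxiredoxin, was at -0.29 ± 0.08, and the cytokine gene Mif at -0.39 ± 0.08, both past the test but not the fold limit. With subtraction and median centring both were called lower, at -1.07 and -1.15, and Mif was at -1.02 under median centring alone. The inducible chaperone gene Hspa1a went the other way. It was well above background in footpad on all 4 arrays and in the reference on none, and was at least 1.99-fold higher in footpad. Its mean log2 ratio of 0.99 became 2.60 with subtraction, 1.03 under median centring and 3.21 from processed signals. Hspa1b, a near-identical copy, may share in that signal.

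Some of the other matched genes have roles that most cells share. Rps27l, a ribosomal protein gene, was at -0.81 ± 0.28 (SD, n = 4), Snu13, of the spliceosome, at -0.57 ± 0.10 and Snrpf, a core splicing factor gene, at -0.28 ± 0.05. Cope, which encodes a coat protein of transport vesicles, was at 0.81 ± 0.10. These passed the test and were under 2-fold on the loess scale. Rps27l was called lower at -1.63 with subtraction, -1.51 under median centring and -1.02 from processed signals, and Snu13 at -1.20 with subtraction. Rpl10a, Fau and the mitochondrial Mrps21, also ribosomal protein genes but under the 0.25 limit for naming, were at 0.16, -0.22 and 0.15. Actg1, cytoplasmic gamma-actin, was at -0.31 ± 0.10, and at -1.03 with subtraction. Adck1, of a mitochondrial kinase family, was at 0.74 ± 0.04 and Lax1, an adaptor of lymphocyte signalling, at 0.40 ± 0.05, but with local background subtraction and median centring their means turned to -0.074 and -0.20, and Lax1 also turned to -0.093 under median centring alone. Acta2, smooth muscle actin and a myoepithelial marker, had log2 ratios of 0.03, -0.08, -0.05 and -0.04 with the footpad channel well above background on 1 array, and its sign turned to 0.26 and 0.048 under those scalings. Of 26 odorant receptor genes with a matched probe, 4 were kept, and Olfr521 lay farthest from 0 at 0.26.

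**Figure D4:**
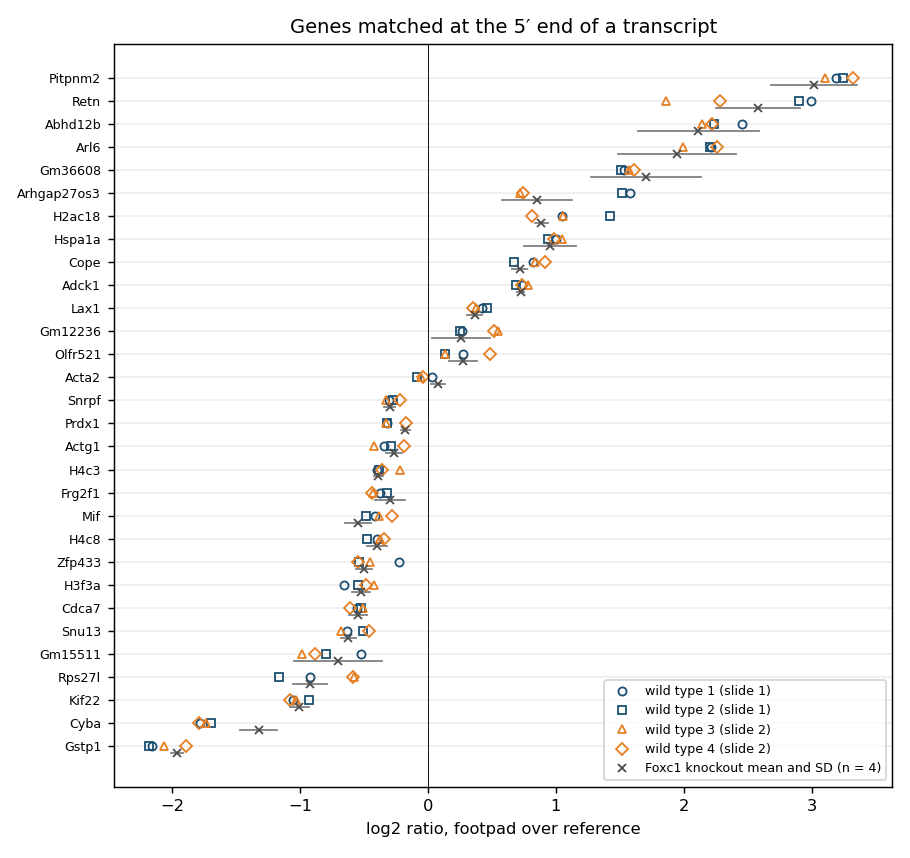
Log2 ratio of footpad over reference for the 30 named genes matched at the 5′ end of a transcript, from Pitpnm2 at the top to Gstp1 at the bottom. Symbols are the 4 wild-type arrays, blue for slide 1 and orange for slide 2, and grey crosses with bars show the mean and SD of the 4 Foxc1 knockout arrays. Retn and Arhgap27os3 are lower on slide 2, and the knockout mean of Cyba, -1.32, lies to the right of its 4 wild-type arrays.

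A small set of probes differed strongly between the wild-type footpads themselves. The range over the 4 arrays had a median of 0.21 but was at least 2 for 57 probes. One array stood at least 1 apart from the other 3 for 6 probes in replicate 1, 9 in replicate 2, 26 in replicate 3 and 49 in replicate 4. The slide means were at least 1 apart with no overlap for 84 probes, 52 of them higher on slide 2. The first 30 bases of the 3 probes with the largest SD are shown.
Z00070082-1: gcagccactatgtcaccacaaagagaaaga
Z00035687-1: tctacacttacagctagaacctactataag
Z00070376-1: ctgaatatcacattgtcccatgttctcaat

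Z00070082-1 was at low or high levels in the footpad channel. Its Cy3 signals were 56.5, 56.5, 54.1 and 2387, while the Cy5 signals were 1482, 1558, 1489 and 1622. The log2 ratios were -3.41, -3.39, -3.21 and 1.59. Replicates 1 to 3 were together and replicate 4 was far above them, with a steady reference. The 4 knockout arrays gave -2.55, 0.50, 0.51 and 0.65, so both levels occurred in each genotype.

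For Z00035687-1 the Cy3 signals were 63.0, 95.5, 1043 and 990 and the Cy5 signals 1946, 1987, 1721 and 1761. The log2 ratios of -3.67, -3.18, 0.22 and 0.21 split the wild-type arrays by slide. The knockout arrays did not split that way: replicate 1 was at -3.02 and replicates 2 to 4 at 0.04, 0.17 and 0.36.

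Other variable probes had one array apart. Z00070376-1 was at 0.05, -0.07, 0.47 and 4.34 in the wild-type arrays, and at 0.39, 0.22, -0.15 and 2.52 in the knockout arrays, with replicate 4 highest in both groups. Z00016441-1 ran the other way, at 2.52, 2.26, 2.34 and -1.02 in wild type and 2.12, 2.15, 2.27 and -5.22 in the knockout. Here replicate 4 was the low one in both groups. Z00076654-1 and Z00074476-1 also had replicate 4 highest in each genotype, at 4.18 and 3.53 in wild type. Same-numbered arrays share a slide but not a position on it, and the labels state no other link between them. Over these 10 probes the SD was 1.48 to 2.46. Against the reference 3 were called (Z00005762-1, Z00016441-1 and Z00076654-1), where 29.3% of all probes were, and Z00016441-1, at a mean of 1.52, lost its call in 6 alternatives, with 0.87 under median centring and 1.28 without replicate 2. Z00070082-1 and Z00035687-1 gained a call with slide as a block, at -2.11 and -1.61, and without replicate 4, at -3.34 and -2.21. Under median centring they were called at -2.55 and -2.10. The slide block takes the split of Z00035687-1 by slide out of the error, and its mean of -1.61 lies between the values of the slides.

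**Figure D5:**
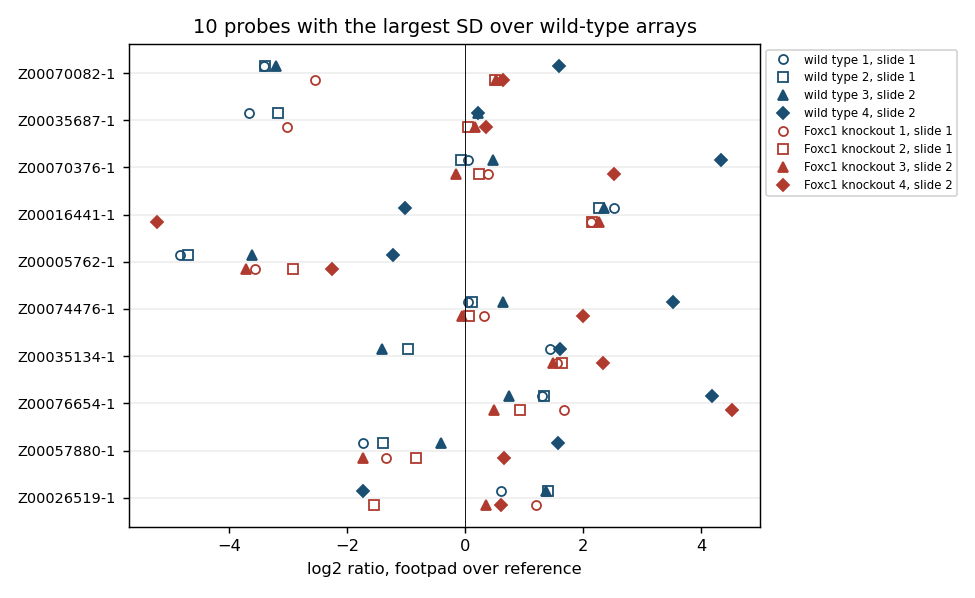
Log2 ratio of footpad over reference for the 10 probes with the largest SD over the wild-type arrays, among probes well above background in both channels. Blue symbols are wild-type and red ones Foxc1 knockout arrays, open on slide 1 and filled on slide 2, with 1 shape per replicate number. In Z00070376-1, Z00074476-1 and Z00076654-1 the filled diamonds, replicate 4, lie highest in both groups, and in Z00016441-1 lowest.

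The probes with extreme ratios in wild type were also far from 0 in knockout footpads, whose own ratios were not ranked. The 20 probes highest in wild type had knockout means of 7.05 to 9.31, with differences of knockout minus wild type from -0.58 to 0.32, and the 20 lowest had knockout means of -9.32 to -5.85, with differences from -0.10 to 0.32. The widest difference among the highest, for Z00011102-1, came from 1 array: wild type was at 8.92, 8.91, 7.77 and 7.98 and the knockout at 9.09, 8.84, 8.28 and 5.03. Over all 31223 probes limma called 876 (2.81%) between genotypes at an adjusted p under 0.05, 620 (1.99%) higher in the knockout and 256 (0.82%) lower. Probes were kept by the wild-type arrays alone, so a probe above background in knockout footpads only was left out. With no filter the count was 842. Without wild-type replicate 1, 2, 3 or 4 the count was 396, 466, 404 or 539, and without knockout replicate 2 or 4 it was 462 or 560. Both comparisons use the wild-type arrays. Among the 80 probes named for extreme, one-channel or variable ratios, limma called 0. It called 0 with the replicate number as a block and 1 from the processed signals. At an unadjusted p under 0.05 in limma's fit were 7 of the 80, against 4561 of all 31223 probes. The 10 variable probes were picked for a large wild-type SD. The 20 highest had a median SD of 0.34, against 0.095 over all probes. Such spread makes a call hard to reach, so the 0 does not show that the genotypes are alike here.

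Of the 71 matched genes 1 was called between genotypes, against 2.81% of all probes tested. Cyba was at -1.32 ± 0.15 (SD, n = 4) in the knockout against -1.75 ± 0.04 in wild type, a difference of 0.43 (adjusted p = 0.020). In both groups the footpad was below the reference. Retn was at 2.58 ± 0.33 in the knockout, 0.07 above its wild-type mean, and Gstp1 at -1.97 ± 0.05.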

How the data were processed

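Spots were read by Agilent's Feature Extraction software (9.5.1.1) on an mm7 grid and are deposited as linear intensities of both channels, per the file headers; the aligner of probes to genes is not given in the sources used here. The series' value table holds log10 values. The authors' values there equal the difference of log10 processed signals plus a constant per probe, so they hold no footpad-to-reference ratio and served for the genotype comparison alone.

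Background was corrected by normexp (offset 50), ratios were normalized by loess within arrays, control and outlier spots were left out, and spots were averaged per probe. limma 3.58.1 (R 4.3.3) tested 4 wild-type ratios against 0, two-sided, and the knockout against wild type over 8 arrays, both with Benjamini-Hochberg adjustment at 0.05. A fit of 68 probes used fewer than 4 values. The number of arrays limits the precision. The fits were tested on simulated data.

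Well above background, Cy3 held 66.1% to 68.3% and Cy5 74.0% to 79.6% of probes on wild-type arrays, and Cy3 71.4% to 76.2% on knockout arrays. Same-numbered arrays of the genotypes, which share a slide, deviated together (r = 0.212, 0.194, 0.101 and 0.437), and the part of the slide was not tested. The main genotype fit used no pairing, and the replicate number served as a block in an alternative alone. A pairing by number rests on the data, not the labels.

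Named probes are the 20 highest and 20 lowest called ratios, the 15 largest bounds each way, the 10 largest SDs, and matched genes in a fixed list, called, or at least 0.25 from 0 with an adjusted p under 0.05 in both channels above background. The last of these limits and the matching rule were set after values were seen. Members and lists were chosen with earlier results of these data known. Alternatives varied background, scaling, filter, block, fold limit and arrays.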

Additional observations from a re-analysis of the deposited data

Results flagged for a closer look

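In 7 of the 110 named probes one wild-type array stood far from the other 3 by Dixon's gap test; chance does this in about 1 of 20 groups, and 4 of the 7 were named for their spread. Replicate 4 stood apart in 5: at a log2 ratio of 1.59 for Z00070082-1 (others -3.41 to -3.21), 4.34 for Z00070376-1 (others -0.07 to 0.47), -1.02 for Z00016441-1 (others 2.26 to 2.52), 3.53 for Z00074476-1 (others 0.05 to 0.64) and -0.17 for the Prdx1 probe Z00060544-1 (others -0.33 to -0.32). Replicate 1 stood apart in 2: at 7.87 for Z00025612-1 (others near 7.65) and -9.36 for Z00074503-1 (others -9.68 to -9.63).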

How the results depend on the processing

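Of the 9142 calls against the reference, the count moved by under 1.5 times with no background correction, each filter, the eBayes trend, slide as a block (which kept 9122) and either slide alone, and was 9132 to 9217 without one wild-type replicate (4944 to 5003 higher and 4185 to 4220 lower). Local background subtraction with median centring gave 13831 (9677 lower), and the lower calls were 7636 under median centring and 7299 from processed signals. Limits of 1.5-fold, 4-fold and none gave 14566, 3460 and 25799 calls (7554, 2211 and 12850 higher; 7012, 1249 and 12949 lower). Between genotypes 876 calls became 887 with the replicate block, which kept 641 of the 876, and 396 to 701 without one replicate. The deposited table, an alternative chosen after the data were seen, gave 708. Signs turned for Z00035134-1 (0.16 to -0.47 with background subtraction, -0.18 median centred, -0.20 from processed signals, and -0.32 to 0.69 without one wild-type replicate), for Z00026519-1 (-0.25 with subtraction and -0.0053 median centred), for Adck1, probe Z00071508-1 (-0.074 with subtraction), for Lax1, probe Z00064604-1 (-0.20 and -0.093), and for Acta2, probe Z00064434-1 (0.26 and 0.048). None of these was called on all 4 arrays with loess, Z00026519-1 was called higher at 1.12 without wild-type replicate 4, and the cause was not tested. Signal near background limits the ratios of dim probes, and dye bias was not measured.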
